A study of Mus musculus with 6 samples.

Results

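The genes described here are 48 enzymes of amino acid breakdown and the urea cycle, chosen by gene symbol from 22810 genes measured in mouse liver. Each was found through the transcript accession of its array probe. All 48 had at least 1 probe among 61 in all, and all 48 passed the filter on dim probes, which keeps a probe if 3 or more arrays read it well above background. For 47 of the 48 genes all 6 arrays did so. The study compared liver RNA of mice labelled Sec15 KO with that of WT mice, with 3 samples in each group, and concerns Sec15, a subunit of the exocyst complex that tethers vesicles to the plasma membrane. All mice were male, 6 weeks old and untreated. The strain, the allele, the part deleted and any Cre driver are not given in the sources used here. The labels number the samples of a group but do not tie each to a separate animal. Every p-value given here thus reflects how these samples vary, some of which may be technical.

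Hepatocytes strip the amino group from surplus amino acids, mostly by passing it to 2-oxoglutarate, and burn or rebuild the carbon skeleton. The nitrogen leaves the body as urea, made in a cycle that is split between mitochondrion and cytosol. Fasting, glucagon and glucocorticoids are known to raise the expression of many of these enzymes in liver. The 48 genes were divided into 6 urea cycle genes, 10 genes of transamination and ammonia release, 8 of aromatic amino acids, 3 of histidine, 8 of lysine, proline and branched-chain amino acids, 6 of sulfur amino acids and 7 of one-carbon and glycine steps. Their signals are log2 intensities relative to the 75th percentile of the same array, and a fold change compares Sec15 KO with WT for 1 probe, since the brightness of different probes cannot be compared.

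A few properties of the whole set of arrays bear on every value below. Slide here means a group of arrays with the same scan time in the file headers, and that they shared a physical slide was inferred. By this rule slide 1 held the 3 WT arrays together with KO replicate 2, while slide 2 held KO replicates 1 and 3. A comparison within slide 1 therefore rests on KO replicate 2 alone, and its adjusted p assumes that this array varies like the others. The sources name WT replicates 1 and 2 with a common number, so they may come from 1 animal. Across all genes they were the least alike WT pair. The SD of their log2 differences was 0.51, against 0.39 and 0.34 for the other WT pairs. Whether they share an animal was not tested. With their mean as 1 sample 15 of the 48 genes described here were called higher, against 3725 of all 22810 genes. Of the 21 calls given below 13 were kept (Cps1, Got2, Tat, Tdo2, Mat1a, Gnmt, Cth and Dmgdh were not, with limma adjusted p between 0.0557 and 0.0985). WT replicate 3 lay between the other WT replicates for 66.1% of all genes, against 15.3% for WT replicate 1 and 18.6% for WT replicate 2. KO replicate 3 lay between the other KO replicates for 58.4%, against 29.4% for KO replicate 1 and 12.2% for KO replicate 2. Brighter probes had higher fold changes: the log2 median was 0.29 for the brightest decile of genes and -0.29 for the dimmest. Sec15 is encoded by Exoc6 and Exoc6b. The Exoc6 probe was well above background on no KO array and on 1 WT array, and the brighter Exoc6b probe differed by -0.53 on the log2 scale (SE 0.15, limma adjusted p = 0.0426). Whether these probes lie in the deleted part is not known, so they do not check the labels.

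Of the 48 genes, 21 (43.8%) rose in Sec15 KO liver, with 0.05 as the threshold on limma's adjusted p, against 17.4% of all 22810 genes. None fell, against 12.2% of all genes, and none was lower at an unadjusted p under 0.05. In either direction 29.6% of all genes were called. In bulk liver, a change in the number of cells of a type and a change in RNA per cell cannot be told apart. The rises ran from 1.24-fold (Dmgdh) to 2.73-fold (Bckdhb). Over the 48 genes the median log2 fold change was 0.42, with 46 values above 0, while the median of all genes was 0.06. Most of these transcripts gave a bright signal: 34 stood in the brightest decile, where 19 (55.9%) were called higher, and none lower, against 36.3% and 3.77% of all genes of that decile. The median of those 34 was 0.52. Cyclic loess normalisation takes out trends with signal strength. With it the median of the 48 genes was 0.19, and 7 were called higher and none lower, against 10.8% and 12.5% of all genes. A fit with slide as a block called 4 higher and none lower, against 5.08% and 4.68% of all genes. Bckdhb, Sds, Agxt and Asl were the genes called in all 3 fits. The 3 KO values lay above all 3 WT values in 34 of the 48 genes (70.8%, against 30.6% of all genes) and below them in 1 (Bcat2), against 20.2% of all genes. In the brightest decile they lay above in 1383 of 2281 genes and below in 150.

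**Figure D1:**
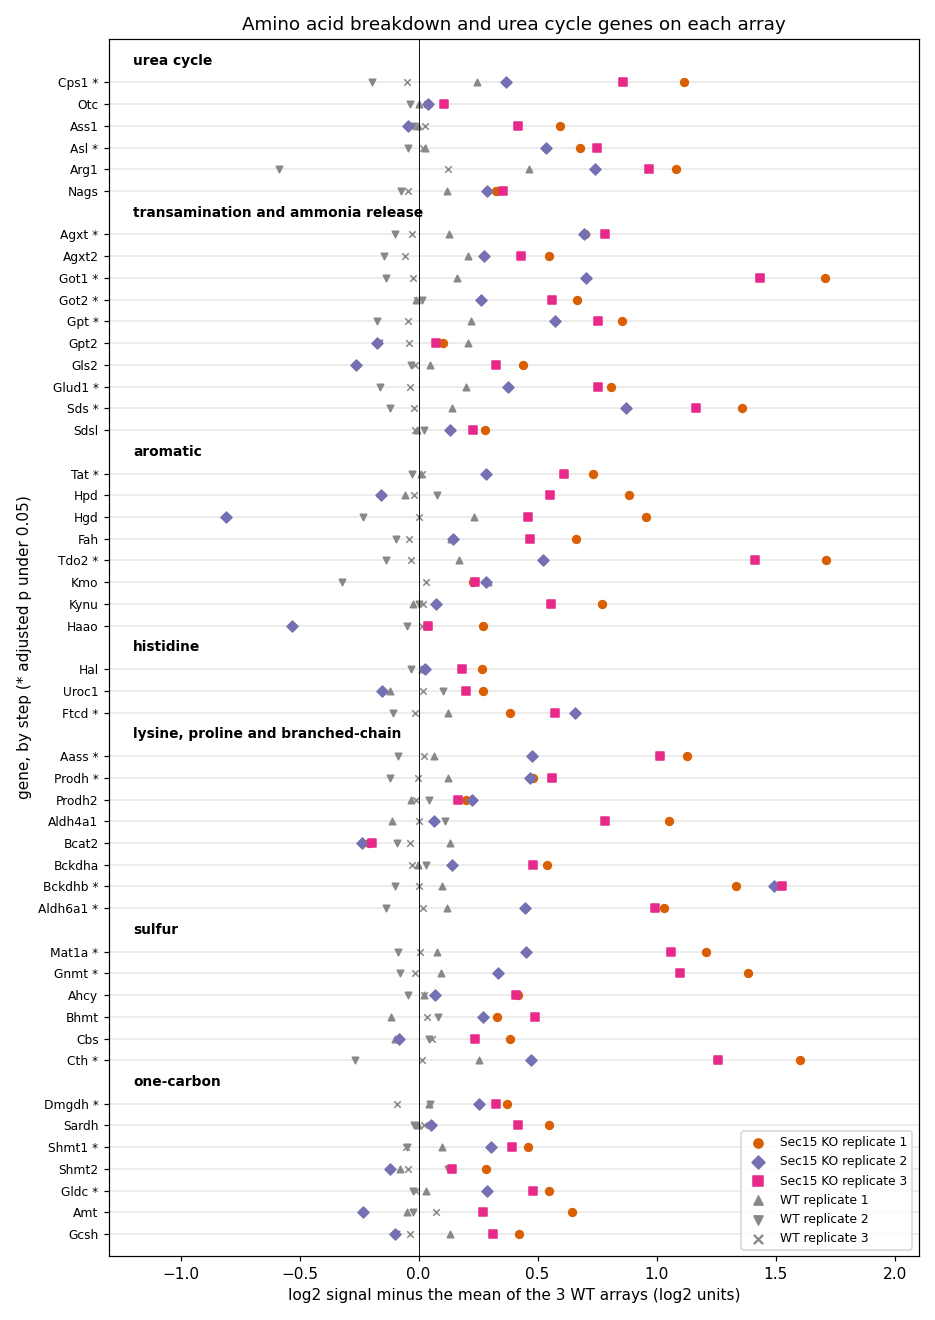
Signal of each gene on each array as the log2 difference from the mean of the 3 WT arrays (horizontal axis), with genes by step down the page. Coloured symbols are the 3 Sec15 KO arrays and grey symbols the 3 WT arrays, and a star marks the 21 genes higher at an adjusted p under 0.05. KO replicate 2 (diamonds) is the lowest KO array for 44 of the 48 genes.

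**Figure D2:**
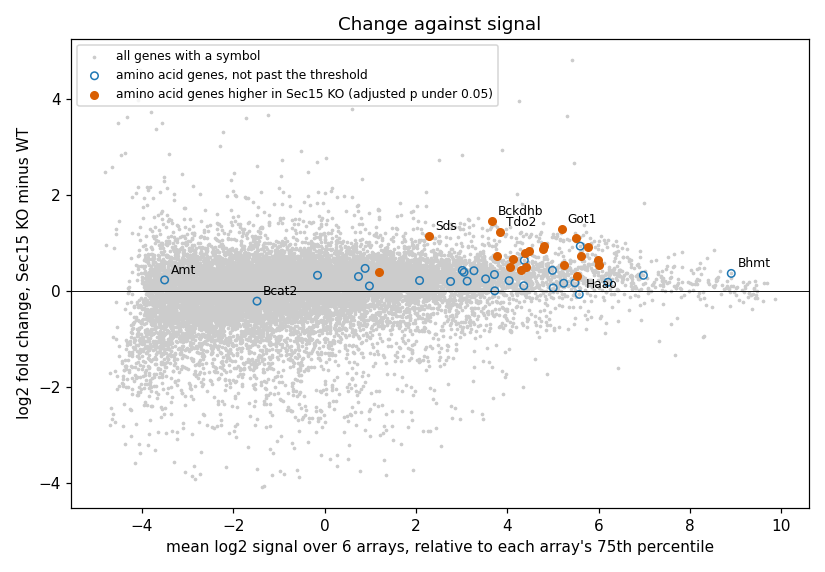
Log2 fold change, Sec15 KO minus WT (vertical axis), against the mean log2 signal over 6 arrays (horizontal axis). Grey points are all genes with a symbol, filled points the 21 amino acid genes past the threshold and open points the other 27. The amino acid genes lie mostly at high signal and above 0.

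KO replicate 2 differed from KO replicates 1 and 3 across this group. It had the lowest of the 3 KO values in 44 of the 48 genes, whereas it was lowest in 45.3% of all genes and in 60.4% of the brightest decile. The median over the 48 genes, as a log2 difference from the WT mean, was 0.57 on KO replicate 1, 0.27 on KO replicate 2 and 0.48 on KO replicate 3, against 0.07, -0.06 and -0.01 on WT replicates 1, 2 and 3. For all genes in the brightest decile the same medians were 0.29, 0.23 and 0.34 on the KO arrays. All 3 KO medians of the group thus lay above the 3 WT medians, with KO replicate 2 closest to them. KO replicate 2 is also the KO array that shares a scan time with WT, so its own difference and that of the inferred slide cannot be told apart. Counts of calls moved with single arrays. They were 37 without KO replicate 2, 5 without KO replicate 1 and 2 without KO replicate 3. In the same order, 5728, 1484 and 476 of all 22810 genes were called higher. Leaving out a WT array gave 15 without WT replicate 1, 4 without WT replicate 2 and 1 (Bckdhb) without WT replicate 3. Of all 22810 genes, 3515, 1186 and 341 were called higher in these fits. None of the 21 genes changed direction under the 17 alternative settings. In all 21, every KO value lay above every WT value. Leaving out an array, averaging WT arrays or adding a block therefore could not reverse them.

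**Figure D3:**
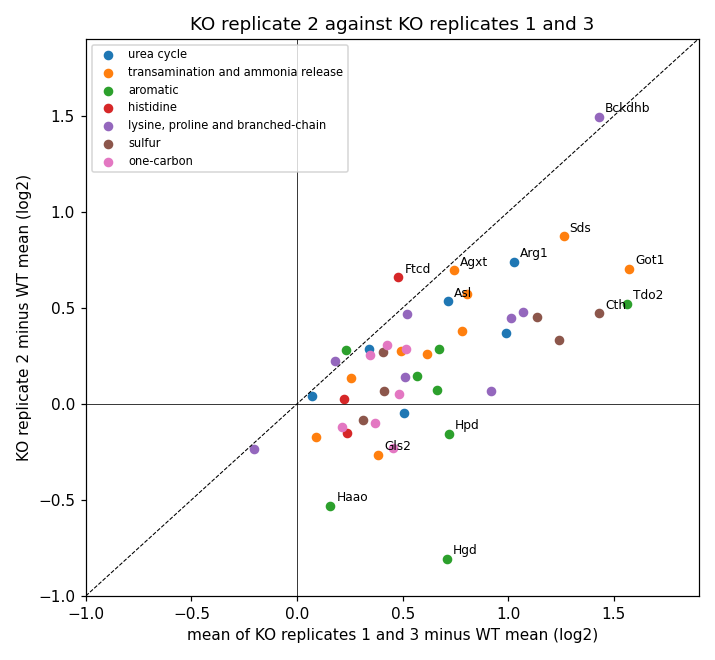
Log2 difference of KO replicate 2 from the WT mean (vertical axis) against that of the mean of KO replicates 1 and 3 (horizontal axis), 1 point per gene, coloured by step. The dashed line marks equal values. Bckdhb, Agxt and Ftcd lie near or above the line, and Hgd, Haao, Hpd and Tdo2 lie far below it.

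Promoter sequences of genes that were higher together are printed for reference, from the RefSeq table of build GRCm38.p6, as windows of 250 bases before to 50 bases after the annotated start. Of the 48 genes, 38 had an entry, with 42 windows in all. The 5 shown belong to the genes with the 3 largest rises (Bckdhb, Got1 and Tdo2), to Tat, a textbook glucocorticoid target, and to Agxt, whose KO arrays were nearly equal. Each is written 5′ to 3′ along the gene, and capitals mark CCAAT, a common proximal promoter element, and TATAAA, the TATA box, on either strand. Bckdhb has 2 windows in the table, of which the first is printed.
Bckdhb, chr9:83924887-83925186, plus strand: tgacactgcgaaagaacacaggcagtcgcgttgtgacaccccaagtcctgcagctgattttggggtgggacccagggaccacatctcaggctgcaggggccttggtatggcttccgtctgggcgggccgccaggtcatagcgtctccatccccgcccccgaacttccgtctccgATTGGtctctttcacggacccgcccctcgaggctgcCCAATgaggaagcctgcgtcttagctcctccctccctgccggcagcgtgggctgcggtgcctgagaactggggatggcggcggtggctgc
Got1, chr19:43524556-43524855, minus strand: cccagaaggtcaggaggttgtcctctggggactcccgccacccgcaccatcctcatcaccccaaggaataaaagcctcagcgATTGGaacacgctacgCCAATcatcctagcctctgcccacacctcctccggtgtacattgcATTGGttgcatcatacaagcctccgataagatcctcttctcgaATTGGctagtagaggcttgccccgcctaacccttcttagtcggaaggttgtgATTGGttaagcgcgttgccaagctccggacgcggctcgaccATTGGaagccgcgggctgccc
Tat, chr8:109990186-109990485, plus strand: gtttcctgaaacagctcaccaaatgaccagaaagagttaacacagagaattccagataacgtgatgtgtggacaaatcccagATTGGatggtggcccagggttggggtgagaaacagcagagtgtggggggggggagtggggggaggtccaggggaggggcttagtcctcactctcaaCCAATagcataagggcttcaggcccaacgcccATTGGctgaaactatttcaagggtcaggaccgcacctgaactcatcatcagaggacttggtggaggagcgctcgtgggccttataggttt
Tdo2, chr3:81975679-81975978, minus strand: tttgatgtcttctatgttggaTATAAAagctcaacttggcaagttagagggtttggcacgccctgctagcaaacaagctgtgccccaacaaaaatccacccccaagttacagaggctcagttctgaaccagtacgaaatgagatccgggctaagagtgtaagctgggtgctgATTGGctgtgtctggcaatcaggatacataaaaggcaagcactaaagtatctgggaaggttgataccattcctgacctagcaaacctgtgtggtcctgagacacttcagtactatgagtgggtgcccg
Agxt, chr1:93134990-93135289, plus strand: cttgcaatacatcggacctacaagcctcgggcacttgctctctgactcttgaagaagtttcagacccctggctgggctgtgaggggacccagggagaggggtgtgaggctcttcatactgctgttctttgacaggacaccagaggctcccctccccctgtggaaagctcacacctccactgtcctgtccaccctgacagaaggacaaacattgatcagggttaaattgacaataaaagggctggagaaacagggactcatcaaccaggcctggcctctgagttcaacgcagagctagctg
CCAAT occurred once or more in 21 of the 42 windows, 50.0%, against 37.4% of 32851 windows of all genes, both strands counted. It was in 11 of the 17 windows of the genes called higher and in 10 of the 25 windows of the others. The printed Got1 window held 6 matches and that of Agxt none. TATAAA was found in 7 of the 42 windows (16.7%, against 13.6% of all windows). The glucocorticoid receptor core motif TGTTCT was found in 5 (11.9%, against 19.0%) and the short cAMP response motif TGACG in 4 (9.52%, against 20.8%). The C/EBP motif TTGCNNAA was in 5 windows (11.9%, against 10.8%). The full cAMP response element TGACGTCA was in none, against 1.79% of all windows. These are matches of letters in a short window, and they do not show binding.

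In the urea cycle, Asl and Cps1 rose, and the other 4 genes did not pass the test, although all 6 log2 fold changes were above 0 (median 0.49). Asl, argininosuccinate lyase, read 4.48, 4.34 and 4.55 on KO replicates 1, 2 and 3, against 3.83, 3.76 and 3.83 on WT replicates 1, 2 and 3. The groups did not overlap, and the rise was 1.57-fold (log2 fold change 0.65, SE 0.10, adjusted p = 0.0105). It kept its call after cyclic loess (adjusted p = 0.0242) and with the slide block (adjusted p = 0.0448). Cps1, carbamoyl phosphate synthetase, which fixes ammonia in the mitochondrion, read 5.10, 4.35 and 4.84 in KO, against 4.23, 3.79 and 3.94 in WT. Its lowest KO value was close to its highest WT value. The rise was 1.72-fold (SE 0.22 on the log2 scale, adjusted p = 0.0462) and was not called after cyclic loess (adjusted p = 0.117) or with the slide block (adjusted p = 0.282). Arg1, the arginase that releases urea, had the largest fold of the cycle at 1.91-fold and narrowly missed the threshold (adjusted p = 0.0513). Its values were 6.21, 5.87 and 6.10 in KO, against 5.60, 4.55 and 5.25 in WT, and the low value of WT replicate 2 widened the WT spread. Nags, which makes the allosteric activator of Cps1, differed by 0.32 (adjusted p = 0.0513). Ass1, argininosuccinate synthetase, differed by 0.32 on its brighter probe (adjusted p = 0.2) and by 0.0046 on its second probe. Otc, ornithine transcarbamylase, read between 5.01 and 5.08 in KO and between 4.94 and 5.01 in WT. Its difference was 0.06, with a 95% interval from -0.15 to 0.27, while its second, dimmer probe differed by 0.47 (adjusted p = 0.178 in the limma fit over all probes).

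Transamination and ammonia release held the largest number of rises, 6 of 10 genes, with a median log2 fold change of 0.57. Sds, serine dehydratase, which turns serine into pyruvate and ammonia, read 3.08, 2.59 and 2.88 in KO, against 1.86, 1.60 and 1.70 in WT. Every KO array was far above every WT array, and the rise was 2.19-fold (log2 fold change 1.13, SE 0.15, adjusted p = 0.00894; 0.90 after cyclic loess). Got1, the cytosolic aspartate aminotransferase, read 6.25, 5.25 and 5.98 in KO, against 4.71, 4.41 and 4.53 in WT. The groups stood apart, with KO replicate 2 well under the other KO arrays, and the rise was 2.43-fold (SE 0.27 on the log2 scale, adjusted p = 0.0209; adjusted p = 0.0662 with the slide block). Agxt, the alanine-glyoxylate aminotransferase that detoxifies glyoxylate in peroxisomes, read 5.95, 5.94 and 6.03 in KO, against 5.37, 5.15 and 5.22 in WT. Its 3 KO arrays were nearly equal, and the 1.65-fold rise (SE 0.10 on the log2 scale, adjusted p = 0.00922) was as large on slide 1 alone, where KO replicate 2 stood 0.70 above the WT mean.

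Gpt, the cytosolic alanine aminotransferase, read 4.27, 3.99 and 4.17 in KO, against 3.64, 3.24 and 3.37 in WT, a 1.66-fold rise (adjusted p = 0.0179). Glud1, glutamate dehydrogenase, the mitochondrial source of free ammonia, read 6.48, 6.04 and 6.42 in KO, against 5.87, 5.50 and 5.63 in WT, a 1.56-fold rise (adjusted p = 0.0333). Got2, the mitochondrial aspartate aminotransferase, read 4.48, 4.07 and 4.37 in KO, against 3.80, 3.83 and 3.81 in WT, a 1.41-fold rise (adjusted p = 0.0356). None of these 3 overlapped between the groups, and with the slide block none was called (adjusted p between 0.0975 and 0.183). The KO values lay above all WT values in 30.6% of all genes. They did so in 1383 of the 2281 genes of the brightest decile, which held Gpt, Glud1 and Got2. Agxt2, a mitochondrial aminotransferase, differed by 0.42 (adjusted p = 0.063) and Sdsl, a relative of Sds, by 0.21 (adjusted p = 0.114). Gpt2, the mitochondrial alanine aminotransferase, read 3.83, 3.55 and 3.80 in KO, against 3.93, 3.56 and 3.69 in WT. The 2 groups overlapped fully, and the interval of the difference ran from -0.34 to 0.34. Gls2, the liver glutaminase, read 5.84, 5.13 and 5.72 in KO, against 5.45, 5.36 and 5.38 in WT, so that KO replicate 2 was below and the other KO arrays above every WT array (adjusted p = 0.533).

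For 7 pairs of related enzymes, chosen with their fold changes known, the log2 fold change of the second gene was subtracted from that of the first on the same arrays. The difference was 1.06 (SE 0.18) for Bckdhb over Bckdha, 0.92 (SE 0.13) for Sds over Sdsl, 0.79 (SE 0.20) for Got1 over Got2 and 0.73 (SE 0.02) for Gpt over Gpt2. It was 0.31 for both Agxt over Agxt2 (SE 0.09) and Prodh over Prodh2 (SE 0.10), and 0.28 (SE 0.12) for Shmt1 over Shmt2. In 6 of the 7 pairs the 3 KO arrays did not overlap the 3 WT arrays in this difference. Such separation was common: among single genes the KO values lay above all WT values in 30.6% and below them in 20.2%. The share over all gene pairs was not taken. An exact two-sided permutation test gave p = 0.1 for each of these 6, the smallest that 3 against 3 allows, and p = 0.2 for Shmt1 over Shmt2 (0.117 and 0.2 after Benjamini-Hochberg adjustment over the 7 pairs). No pair could pass a threshold of 0.05, so these differences are given as sizes only. By place in the cell, 11 of 24 cytosolic enzymes rose (median log2 fold change 0.45), as did 9 of 23 mitochondrial ones (median 0.34) and the peroxisomal Agxt. Of all genes 17.4% rose, and 36.3% of the brightest decile, which held 17 of the cytosolic and 16 of the mitochondrial enzymes. After cyclic loess 4 cytosolic and 2 mitochondrial enzymes and Agxt were called, against 10.8% of all genes. The difference between compartments was not tested.

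Among the aromatic steps, the first enzymes of tryptophan and tyrosine breakdown rose and the 6 later enzymes did not pass the test. These were 2 of 8 genes, against 17.4% of all genes and 36.3% of the brightest decile. After cyclic loess none of the 8 was called. Of the later enzymes, Kynu differed by 0.47 and Hpd and Fah by 0.43, close to the 0.54 of Tat. The difference between first and later enzymes was not tested. Tdo2, tryptophan dioxygenase, which opens the kynurenine pathway, read 4.94, 3.75 and 4.64 in KO, against 3.40, 3.09 and 3.20 in WT. The groups did not overlap, but KO replicate 2 rose by far less than the others, and the 2.32-fold rise (log2 fold change 1.22, SE 0.31, adjusted p = 0.035) was not called with the slide block (adjusted p = 0.122) or after cyclic loess (0.94, adjusted p = 0.0607). Tat, tyrosine aminotransferase, read 6.47, 6.02 and 6.35 in KO, against 5.75, 5.71 and 5.75 in WT, a 1.46-fold rise (SE 0.14 on the log2 scale, adjusted p = 0.0335). It too was uncalled with the slide block (adjusted p = 0.137) and after cyclic loess (adjusted p = 0.155).

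Of the 6 later enzymes, Hgd, Hpd and Haao had KO arrays on both sides of the WT arrays. Hgd, homogentisate dioxygenase, read 3.97, 2.21 and 3.48 in KO, against 3.25, 2.78 and 3.02 in WT. KO replicate 2 was thus the lowest and KO replicates 1 and 3 the highest of the 6 arrays, which gave the widest KO spread of the group and a difference of 0.20 (SE 0.45, adjusted p = 0.745). Hpd, the hydroxyphenylpyruvate dioxygenase one step earlier, read 5.66, 4.62 and 5.33 in KO, against 4.72, 4.85 and 4.76 in WT. Haao, which opens the ring of 3-hydroxyanthranilate late in the kynurenine pathway, read 5.88, 5.08 and 5.65 in KO, against 5.65, 5.56 and 5.63 in WT. This pattern, KO replicate 2 below every WT array with KO replicates 1 and 3 above them, occurred in 9 of the 48 genes and in 657 of all 22810. Fah, the last tyrosine enzyme, differed by 0.43 (adjusted p = 0.089). Kynu, kynureninase, differed by 0.47 (adjusted p = 0.105; 0.67 on its second probe), and Kmo, the mitochondrial kynurenine hydroxylase, by 0.25 (adjusted p = 0.283). The median over the 8 aromatic genes was 0.75, 0.11 and 0.51 above the WT mean on KO replicates 1, 2 and 3. In histidine breakdown Ftcd, the formiminotransferase of the last step, rose 1.45-fold (SE 0.12 on the log2 scale, adjusted p = 0.0237). It read 5.35, 5.62 and 5.54 in KO, against 5.09, 4.86 and 4.95 in WT, and here KO replicate 2 was the highest array. Ftcd was not called after cyclic loess (0.26, adjusted p = 0.19), with the slide block (adjusted p = 0.0552) or with the replicate number as a block (adjusted p = 0.0639). Hal and Uroc1, the histidase and urocanase of the first steps, differed by 0.16 and 0.11 (adjusted p = 0.258 and 0.592).

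**Figure D4:**
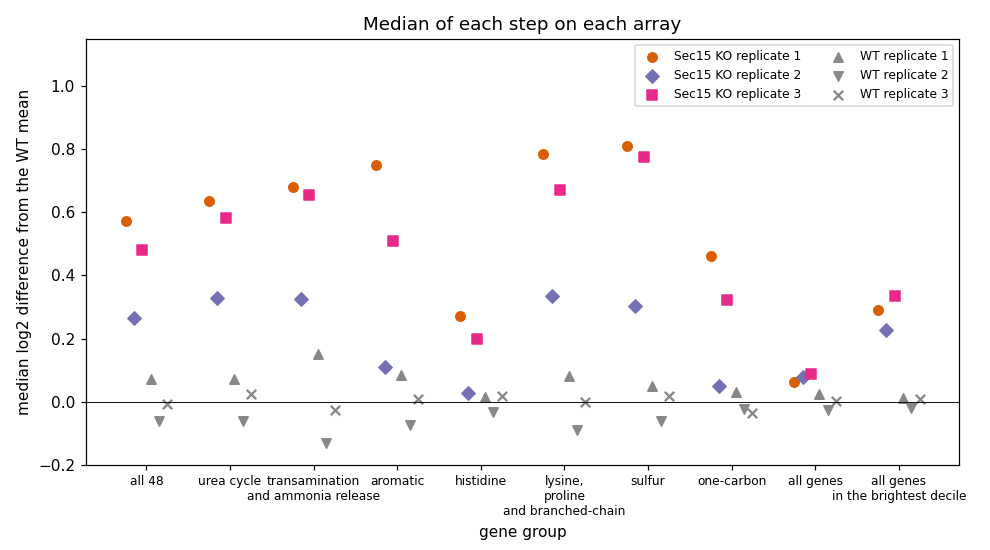
Median log2 difference from the WT mean (vertical axis) over the genes of each step on each array (horizontal axis: gene group), beside all 48 genes, all 22810 genes and the brightest decile of all genes. Coloured symbols are the Sec15 KO arrays and grey ones the WT arrays. The KO medians for aromatic genes are spread from 0.11 to 0.75.

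The largest change of the 48 genes was in branched-chain amino acid breakdown. Bckdhb, the E1 beta subunit of the branched-chain ketoacid dehydrogenase, read 4.27, 4.43 and 4.46 in KO, against 3.04, 2.84 and 2.94 in WT. The KO arrays were close together and all far above WT, and the rise was 2.73-fold (log2 fold change 1.45, SE 0.11, adjusted p = 0.00417). It was called under all 17 alternative settings, with adjusted p between 0.00112 and 0.042. Bckdha, the E1 alpha partner subunit, differed by 0.39 (adjusted p = 0.0698). Of the complex's other parts, which are not among the 48 genes and were named after their values were seen, the E3 subunit Dld rose by 1.11 (SE 0.23, adjusted p = 0.0204) and the E2 subunit Dbt by 0.79 (SE 0.21, adjusted p = 0.0378) on the log2 scale. The inhibitory kinase Bckdk differed by 0.36 (adjusted p = 0.0571) and the activating phosphatase Ppm1k by 0.91 (adjusted p = 0.0667).

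Bcat2, the branched-chain aminotransferase, had the lowest fold of the group: it read -1.59, -1.61 and -1.57 in KO, against -1.25, -1.47 and -1.41 in WT. All KO values were below WT, with a difference of -0.21 (SE 0.10, adjusted p = 0.141). Aldh6a1, which acts late in valine breakdown, read 5.10, 4.52 and 5.07 in KO, against 4.19, 3.93 and 4.09 in WT, a 1.77-fold rise (adjusted p = 0.0248). Aass, the first enzyme of lysine breakdown, read 5.48, 4.83 and 5.36 in KO, against 4.42, 4.26 and 4.37 in WT, a 1.83-fold rise (SE 0.19 on the log2 scale, adjusted p = 0.0223; adjusted p = 0.0458 after cyclic loess). Prodh, proline dehydrogenase, was more even across the KO arrays, with 4.63, 4.62 and 4.71 in KO against 4.28, 4.03 and 4.15 in WT, a 1.42-fold rise (adjusted p = 0.0199). None of these 3 was called with the slide block (adjusted p between 0.0662 and 0.0912). Prodh2, a hydroxyproline dehydrogenase, differed by 0.19 (adjusted p = 0.126). Aldh4a1, which takes the product of Prodh to glutamate, differed by 0.63 (adjusted p = 0.11), with KO replicate 2 within the WT range.

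In sulfur amino acid metabolism 3 of 6 genes rose, with a median of 0.63 that was the highest of the 7 steps. With the slide block this median was 0.302, below those of lysine, proline and branched-chain steps (0.335), the urea cycle (0.327) and transamination and ammonia release (0.325). Mat1a, the liver enzyme that makes the methyl donor S-adenosylmethionine, read 6.53, 5.77 and 6.39 in KO, against 5.40, 5.24 and 5.33 in WT, a 1.87-fold rise (SE 0.21 on the log2 scale, adjusted p = 0.0269). Gnmt, the glycine methyltransferase that consumes surplus S-adenosylmethionine, read 5.72, 4.67 and 5.44 in KO, against 4.44, 4.26 and 4.32 in WT, a 1.92-fold rise (SE 0.27 on the log2 scale, adjusted p = 0.0475). Cth, cystathionine gamma-lyase, which yields cysteine, read 6.56, 5.43 and 6.22 in KO, against 5.21, 4.69 and 4.97 in WT, a 2.16-fold rise (SE 0.31 on the log2 scale, adjusted p = 0.0435). For all 3, KO replicate 2 lay above WT but well under the other KO arrays, and none was called with the slide block (adjusted p between 0.0788 and 0.244) or after cyclic loess (adjusted p between 0.0597 and 0.102). The second Cth probe differed by 1.24. Bhmt, which remethylates homocysteine with betaine, differed by 0.36 on its brightest probe (adjusted p = 0.0519). Its other probes differed by 0.54 and 0.43, with adjusted p = 0.0178 and 0.0241 in a limma fit over all 27024 probes. Cbs, cystathionine beta-synthase, which precedes Cth, differed by 0.18 (adjusted p = 0.367), and KO replicate 2 lay within the WT range. Ahcy, which splits S-adenosylhomocysteine, differed by 0.30 on 1 probe and by -0.14 on the other, and neither passed.

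One-carbon and glycine steps had 3 rises among 7 genes, all small, with a median of 0.32. Gldc, the decarboxylase of the glycine cleavage system, read 4.64, 4.37 and 4.57 in KO, against 4.12, 4.06 and 4.08 in WT, a 1.35-fold rise (SE 0.10 on the log2 scale, adjusted p = 0.0291). Shmt1, the cytosolic serine hydroxymethyltransferase, read 1.465, 1.308 and 1.395 in KO, against 1.104, 0.956 and 0.951 in WT, a 1.31-fold rise (adjusted p = 0.0343), while its second probe differed by 0.01. Dmgdh, dimethylglycine dehydrogenase, read 5.73, 5.62 and 5.69 in KO, against 5.40, 5.41 and 5.27 in WT. Its 1.24-fold rise stood at the threshold (adjusted p = 0.0499), and after cyclic loess the difference was 0.03. None of these 3 was called with the slide block (adjusted p between 0.123 and 0.184) or after cyclic loess (adjusted p between 0.121 and 0.799). Sardh, the next enzyme of choline breakdown, differed by 0.34 (adjusted p = 0.125). Gcsh and Amt, which act with Gldc and the Dld subunit in glycine cleavage, differed by 0.21 and 0.23, with adjusted p = 0.342 and 0.457. Amt was well above background on 2 KO arrays and 3 WT arrays and is the dimmest signal of the group. Shmt2, the mitochondrial isoform of Shmt1, differed by 0.10 (adjusted p = 0.583).

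The calls across steps are descriptions, since no test of one step against another was made. The share of genes called was highest for transamination and ammonia release (6 of 10), followed by lysine, proline and branched-chain steps (4 of 8) and sulfur steps (3 of 6). It was 3 of 7 for one-carbon steps, 2 of 6 for the urea cycle, 1 of 3 for histidine and 2 of 8 for aromatic steps. The share was 17.4% for all genes and 36.3% for the brightest decile, which held 34 of the 48 genes. After cyclic loess the calls that were left fell on transamination and ammonia release (4), lysine, proline and branched-chain steps (2) and the urea cycle (1). In that fit 10.8% of all genes were called higher. The step medians there ran from -0.12 for histidine to 0.38 for sulfur steps.

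A list of 101 further genes of the same pathways, 92 of them measured, gave 21 higher and 3 lower in KO, with a median log2 fold change of 0.31, against 17.4% and 12.2% of all genes. After cyclic loess 8 were higher and 6 lower, against 10.8% and 12.5% of all genes, and with the slide block 5 were higher and 2 lower. Among the rises with the smallest p, Slc38a2, an amino acid importer, rose 1.99-fold (adjusted p = 0.00829) and Slc7a8, another transporter, 1.62-fold (adjusted p = 0.0173). Mmut, methylmalonyl-CoA mutase, rose 1.72-fold (adjusted p = 0.0124). Acad8, the isobutyryl-CoA dehydrogenase of valine breakdown, rose 2.03-fold (adjusted p = 0.0132), and Dlst, an E2 subunit of the 2-oxoglutarate dehydrogenase, 1.43-fold (adjusted p = 0.0185). The 3 falls were Csad, which makes taurine precursors, at -1.55 (SE 0.39, adjusted p = 0.0341), and the transporters Slc38a7 at -0.81 (adjusted p = 0.0495) and Slc7a5 at -0.53 (adjusted p = 0.0374) on the log2 scale. Csad read 1.18, 2.27 and 1.80 in KO, against 3.91, 2.69 and 3.30 in WT, so both groups were widely spread. After cyclic loess Slc38a7 (-1.03, limma adjusted p = 0.0398) and Slc7a5 (-0.67, limma adjusted p = 0.033) kept their calls, as did Slc38a2 (0.75) and Slc7a8 (0.80). With the slide block the log2 difference was -0.64 for Slc38a7, -0.27 for Slc7a5, 0.81 for Slc38a2 and 0.47 for Slc7a8. None of the 3 falls was called with the slide block (adjusted p between 0.172 and 0.255).

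Of 22 measured regulators known to act on these genes, 11 rose and none fell (median log2 fold change 0.45), against 17.4% and 12.2% of all genes. After cyclic loess 5 were called higher and 1 lower (median 0.23), and with the slide block 4 were higher and none lower. Over all genes, 10.8% were higher and 12.5% lower after cyclic loess, and the shares with the slide block are given above. The liver factors Cebpa and Foxa2, named after their values were seen, differed by -0.37 and -0.30 (adjusted p = 0.0803 and 0.0604). Ppargc1a, a coactivator of the fasting liver, read 1.94, 1.94 and 1.97 in KO, against 0.70, 0.15 and 0.39 in WT, a 2.90-fold rise (SE 0.15 on the log2 scale, adjusted p = 0.00623). Trib3, a stress-induced pseudokinase, rose 3.23-fold (SE 0.28 on the log2 scale, adjusted p = 0.0127). Cebpb, a transcription factor of the hormone response, rose 1.61-fold (adjusted p = 0.00905), and the coactivator Crebbp 1.55-fold (adjusted p = 0.0109). Klf15, a factor known to drive amino acid breakdown in mouse liver and named after its values were seen, read 4.78, 4.86 and 4.79 in KO, against 4.32, 4.30 and 4.31 in WT. Its 1.42-fold rise had adjusted p = 0.0131, 0.0385 with the slide block and 0.126 after cyclic loess. KO replicate 2 was the highest KO array for Trib3 and Klf15 and the lowest for Cebpb and Crebbp.

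Markers of other cells were read on the same arrays, where 17.4% of all genes were called higher and 12.2% lower. Among erythroid markers, 8 of the 13 measured were called higher and 2 lower, and the log2 of their summed signal was between 8.59 and 8.93 in KO and between 6.56 and 7.12 in WT. Of 14 Kupffer cell and leukocyte markers 5 rose and 2 fell, with sums from 5.83 to 6.02 in KO and from 5.36 to 5.38 in WT, and of 9 endothelial markers 5 rose and none fell (4.89 to 5.31 in KO and 4.54 to 4.58 in WT). Of 10 pancreas markers 1 rose and 8 fell (3.80 to 3.88 in KO and 3.98 to 4.29 in WT), and 3 of the 14 listed were above background on no array. Among 11 hepatocyte markers 1 rose and 1 fell (12.25 to 12.48 in KO and 12.11 to 12.30 in WT), and all 11 were well above background on all arrays. The part of these other cells in the rises described here was not tested.

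**Figure D5:**
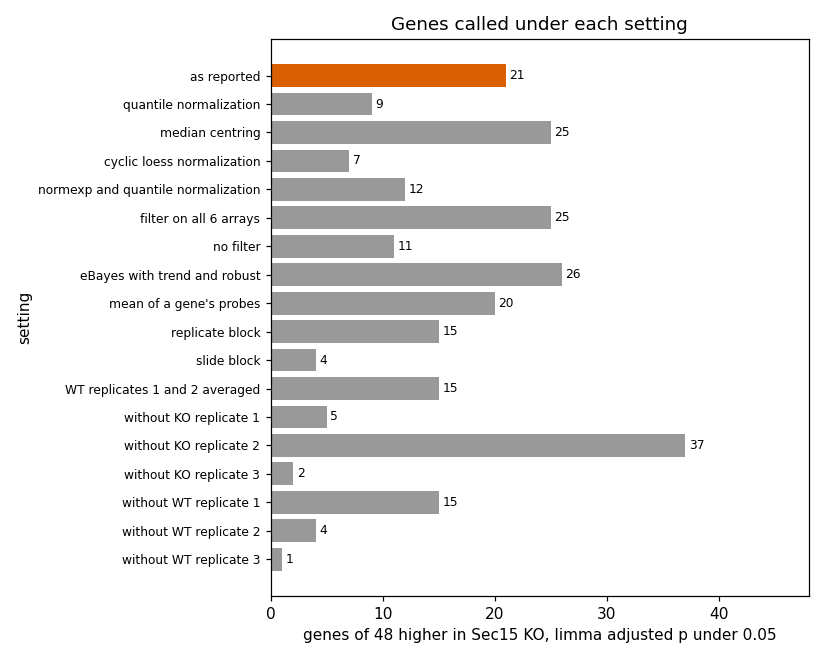
Number of the 48 genes higher in Sec15 KO at a limma adjusted p under 0.05 (horizontal axis) under each setting (vertical axis), with the reported setting in orange. The bars run from 1 without WT replicate 3 to 37 without KO replicate 2. In these 2 settings 341 and 5728 of all genes were called higher.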

How the data were processed

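Liver RNA of 3 Sec15 KO and 3 WT samples was measured on 1 one-colour Agilent array each. The authors deposited scanner files with an intensity for each spot. Agilent Feature Extraction 11.0.1.1 made them 1 array at a time, per the file headers. In the deposited files the remaining columns used are other values, which flag a spot as outlier, saturated or well above background.

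Outlier spots (178 to 236 per array) were left out and spots of a probe averaged. No spot was saturated. The log2 processed signal minus each array's 75th percentile was used. Probes well above background on at least 3 arrays were kept (27024 of 39429), accessions were matched to RefSeq symbols (27234 probes matched 1 symbol), and the brightest probe stood for a gene. Sec15 KO was compared with WT by limma 3.58.1 in R 4.3.3, with Benjamini-Hochberg adjustment over 22810 genes at 0.05. The calculation was checked on simulated data. The number of arrays limits the precision.

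The genes, lists, pairs and motifs were chosen with earlier results of these data known. Every one of the 48 genes was named, those past the threshold with every array. Of the further pathway genes the 6, and of the regulators the 4, with the smallest p in each direction were named, except 1 gene that is not reported here. Alternatives were other normalisations, filters, variance models, probe rules, blocks for replicate number and slide, a mean of WT replicates 1 and 2 as 1 sample, and leaving out single replicates. Normexp was run on the median spot and background signals.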

Additional observations from a re-analysis of the deposited data

How the results depend on the processing

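With cyclic loess normalisation 2464 of all genes were called higher, 7 of the 48 amino acid genes were higher, and of the further pathway genes 8 were higher and 6 lower. The log2 medians there were 0.19 for the 48 genes, 0.29 for transamination and ammonia release, -0.12 for histidine, 0.29 for lysine, proline and branched-chain steps and 0.068 for one-carbon steps. With quantile normalisation 3135 of all 22810 genes were higher and 2539 lower. There 9 of the 48 were higher and 6 further genes lower, with medians of 0.24, 0.29, -0.15, 0.31 and 0.13 in the same order. With normexp and quantile normalisation 3408 of all genes were higher and 2654 lower. There 12 of the 48 were higher and 5 further genes lower, with medians of 0.22, 0.26, -0.13, 0.25 and 0.062. With the slide as a block 1158 of all genes were higher and 1067 lower, 4 of the 48 were higher and 5 further genes higher, with medians of 0.27, 0.33, 0.027, 0.34 and 0.050, and 0.11 for aromatic steps. With median centring the histidine median was 0.28 and that of lysine, proline and branched-chain steps 0.69. Without a filter on dim probes 2613 of all genes were higher, 11 of the 48 higher, and of the further genes 12 were higher and 0 lower in limma (5 lower at an unadjusted p under 0.05). With the mean of a gene's probes 1 further gene was lower. The cause of these shifts was not tested, except that the slide block leaves 1 KO array on the slide of the WT arrays.

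Same-numbered KO and WT samples deviated from their group means with correlations of 0.11, 0.11 and 0.02, so the numbers were not taken as pairs, and KO replicate 3 correlated best with WT replicate 1. With the replicate block 15 of the 48 genes were called higher, and 1 further gene lower, against 2921 of all genes higher and 2394 lower. Leaving out 1 array at a time gave 341 to 5728 genes higher and 276 to 5069 lower among all genes, 1 to 37 of the 48 higher, 0 to 48 further genes higher and 0 to 5 lower in limma. Without WT replicate 3, where no further gene was called, 20 were higher and 3 lower at an unadjusted p under 0.05. The median of lysine, proline and branched-chain steps was between 0.47 and 0.72. None of the 48 was called lower by limma in any setting, and at an unadjusted p under 0.05 at most 3 were lower (normexp and quantile normalisation). Signal over background limits the value of Amt most, the gene of the 48 not well above background on every array.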
